A study of Mus musculus with 6 samples.

Results

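Bnip3, Bnip3l, Ndufa4l2, Ndufa4, Cox4i2, Cox4i1, Mgarp and Higd1a were followed in embryoid bodies from mouse iPSCs (induced pluripotent stem cells) with and without intermittent compressive force (ICF). These 8 genes encode mitochondrial proteins linked to low oxygen or to mitophagy, and Ndufa4 and Cox4i1 serve as the widely expressed paralogs of Ndufa4l2 and Cox4i2. They were chosen by symbol, with Mgarp also known as 4930583H14Rik, from an earlier view of the difference between ICF and control in these same samples. Their values in that comparison are therefore given as a description: no p-value is given for them, and where a threshold of the fit over all genes is mentioned, nothing is drawn from it. All 8 were found among the 50686 gene identifiers of the count files.

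The cells were iPSCs derived from mouse gingival fibroblasts and grown on SNL feeder cells, which were removed by selective trypsinization. In both groups, embryoid bodies were treated with retinoic acid, plated on gelatin-coated dishes and kept in serum-free medium. The ICF group (3 samples) received 1.5 g/cm2 at 0.23 Hz for 24 h, and the control group (3 samples) was not loaded. The labels number the samples of each group as donors 1 to 3, the methods speak of independent experiments, and no source used here says whether a donor number stands for another cell line.

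Damaged or surplus mitochondria are removed by mitophagy, in which a receptor on the outer membrane recruits the autophagy machinery. BNIP3 and NIX (the product of Bnip3l) are such receptors, and both genes are classical targets of the hypoxia-inducible factors (HIFs). Under low oxygen, cells can also exchange a subunit of cytochrome c oxidase, the last enzyme of the respiratory chain. COX4-2 (Cox4i2) can take the place of COX4-1 (Cox4i1). NDUFA4L2 is the hypoxia-induced paralog of NDUFA4, and whether it takes the place of NDUFA4 was not tested here. HIFs bind short DNA stretches with the core ACGTG or GCGTG.

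Promoter sequences are shown because the HIF core can be read in them directly. The table of promoters used, from RefSeq on build GRCm38.p6, held 4 of the 8 genes: Bnip3, Mgarp, Higd1a and Ndufa4. Each window runs from 250 bases before the annotated start to 50 after it, on the minus strand, at chr7:138909457-138909756 (Bnip3), chr3:51396498-51396797 (Mgarp), chr9:121857747-121858046 (Higd1a) and chr6:11907401-11907700 (Ndufa4). Capitals mark ACGTG or GCGTG read on either strand, so that CACGT and CACGC are the same cores on the opposite strand.
Bnip3: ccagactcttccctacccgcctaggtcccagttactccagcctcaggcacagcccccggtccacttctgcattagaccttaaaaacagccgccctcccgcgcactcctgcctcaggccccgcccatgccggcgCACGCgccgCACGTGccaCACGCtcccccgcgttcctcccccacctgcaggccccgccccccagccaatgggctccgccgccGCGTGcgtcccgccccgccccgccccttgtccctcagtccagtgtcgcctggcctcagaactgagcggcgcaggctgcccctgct
Mgarp: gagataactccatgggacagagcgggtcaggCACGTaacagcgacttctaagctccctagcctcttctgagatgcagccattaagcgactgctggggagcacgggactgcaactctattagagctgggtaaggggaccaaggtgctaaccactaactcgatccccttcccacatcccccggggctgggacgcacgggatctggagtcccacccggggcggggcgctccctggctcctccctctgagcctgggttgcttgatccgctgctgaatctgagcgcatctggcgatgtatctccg
Higd1a: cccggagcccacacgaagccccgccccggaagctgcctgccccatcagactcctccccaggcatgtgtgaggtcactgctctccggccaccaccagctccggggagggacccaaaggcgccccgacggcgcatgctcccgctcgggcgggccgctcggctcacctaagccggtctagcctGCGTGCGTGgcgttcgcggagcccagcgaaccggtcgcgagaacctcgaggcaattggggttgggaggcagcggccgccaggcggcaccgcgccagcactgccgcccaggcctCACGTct
Ndufa4: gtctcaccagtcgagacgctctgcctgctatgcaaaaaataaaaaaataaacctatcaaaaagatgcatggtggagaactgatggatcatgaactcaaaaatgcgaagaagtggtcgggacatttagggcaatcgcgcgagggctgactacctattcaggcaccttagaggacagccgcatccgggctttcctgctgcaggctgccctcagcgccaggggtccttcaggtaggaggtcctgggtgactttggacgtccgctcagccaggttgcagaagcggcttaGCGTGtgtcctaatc

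The Bnip3 window held 5 matches, beginning 117, 108, 107, 99 and 35 bases before the start. The matches at 108 and 107 overlap, since CACGTG reads the same on both strands. In Higd1a, GCGTG began 70 and 66 bases before the start, sharing a G, and ACGTG on the opposite strand 44 bases after it. Mgarp held 1 match, 219 bases before the start, and Ndufa4 1 match, 36 bases after it. Either core was found in 43.8% of all 32851 windows of the same length and in 60.0% of the 14873 windows of genes that passed the filter on low counts. ACGTG alone was found in 19.6% and 24.7% of these. All 4 windows thus held a core, that of Ndufa4 included. A match is a description of letters, not a binding site.

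Coding sequences of Ndufa4l2 and Ndufa4 are shown because the counts of these paralogs are compared directly. They are the coding parts of the GENCODE M21 transcripts, with capitals at the bases that are identical in their alignment.
Ndufa4l2: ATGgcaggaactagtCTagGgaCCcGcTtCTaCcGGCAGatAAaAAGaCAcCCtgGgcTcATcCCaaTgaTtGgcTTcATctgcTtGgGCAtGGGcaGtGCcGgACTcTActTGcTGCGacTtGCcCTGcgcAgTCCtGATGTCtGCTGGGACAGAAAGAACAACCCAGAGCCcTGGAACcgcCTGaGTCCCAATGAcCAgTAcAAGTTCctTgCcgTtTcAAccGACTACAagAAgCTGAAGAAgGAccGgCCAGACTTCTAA
Ndufa4: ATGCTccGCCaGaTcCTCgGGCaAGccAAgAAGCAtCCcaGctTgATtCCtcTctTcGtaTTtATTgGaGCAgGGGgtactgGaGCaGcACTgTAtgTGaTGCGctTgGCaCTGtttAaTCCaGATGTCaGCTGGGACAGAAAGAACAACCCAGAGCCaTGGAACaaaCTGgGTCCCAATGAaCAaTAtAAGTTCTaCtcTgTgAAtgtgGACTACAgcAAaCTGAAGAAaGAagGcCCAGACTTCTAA

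The 264 coding bases of Ndufa4l2 and the 249 of Ndufa4 had 174 identical bases among 242 aligned (71.9%), and their longest identical run was 28 bases. Identity was 70.5% between Cox4i2 and Cox4i1 and 76.4% between Bnip3 and Bnip3l, each with a longest identical run of 14 bases. None of these runs reaches the read length of 75 cycles, so a full-length read holds differences between the paralogs of each pair.

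Counts assigned to genes summed to between 28711166 and 34194413 per sample, and 16729 genes passed the filter on low counts. At an adjusted p under 0.05 (edgeR quasi-likelihood test, Benjamini-Hochberg), 7.85% of them were called different, 4.38% lower and 3.47% higher with ICF. In CPM, the groups did not overlap in 31.4% of the genes, with 15.7% lower and 15.6% higher. ICF replicate 3 stood apart, with counts above 0 for 20802 genes against 24340 to 24889 in the other samples, and with 89.0% of its counts a multiple of 4 against 20.3% to 21.5%. The cells carried high levels of pluripotency genes (Pou5f1 at 841 and 817 CPM, or counts per 1000000 reads after normalization, in control and with ICF). The paper used retinoic acid to guide them toward immature mesenchymal cells, and markers of both states are given below.

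Of the 8 genes, 6 were lower with ICF in every sample than in any control sample, beside 15.7% of all genes tested. Ndufa4 and Cox4i1 overlapped between the groups. These same 6 passed the threshold of the fit over all genes and none was higher, beside the 4.38% of all genes called lower, from which nothing is read since the genes were chosen in this comparison. The count was 4 to 6 without 1 sample, where Higd1a and Cox4i2 dropped out without replicate 1 or 2 of either group. It was 7 without replicate 3 of both groups, where Cox4i1 was added. Over all genes, those called lower were 733 with all samples, 215 to 928 without 1 sample and 2627 without replicate 3 of both groups. Nothing is read from these counts either. All 8 passed the filter on low counts, Cox4i2 through its control samples alone. By log2 fold change from the lowest, Ndufa4l2 ranked 2, Cox4i2 18, Bnip3 21 and Mgarp 56 of 16729 genes. Bnip3l ranked 774 and Higd1a 1097, whereas Cox4i1 ranked 4957 and Ndufa4 7394. As these are bulk samples, fewer cells of a type and less RNA per cell cannot be told apart.

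**Figure D1:**
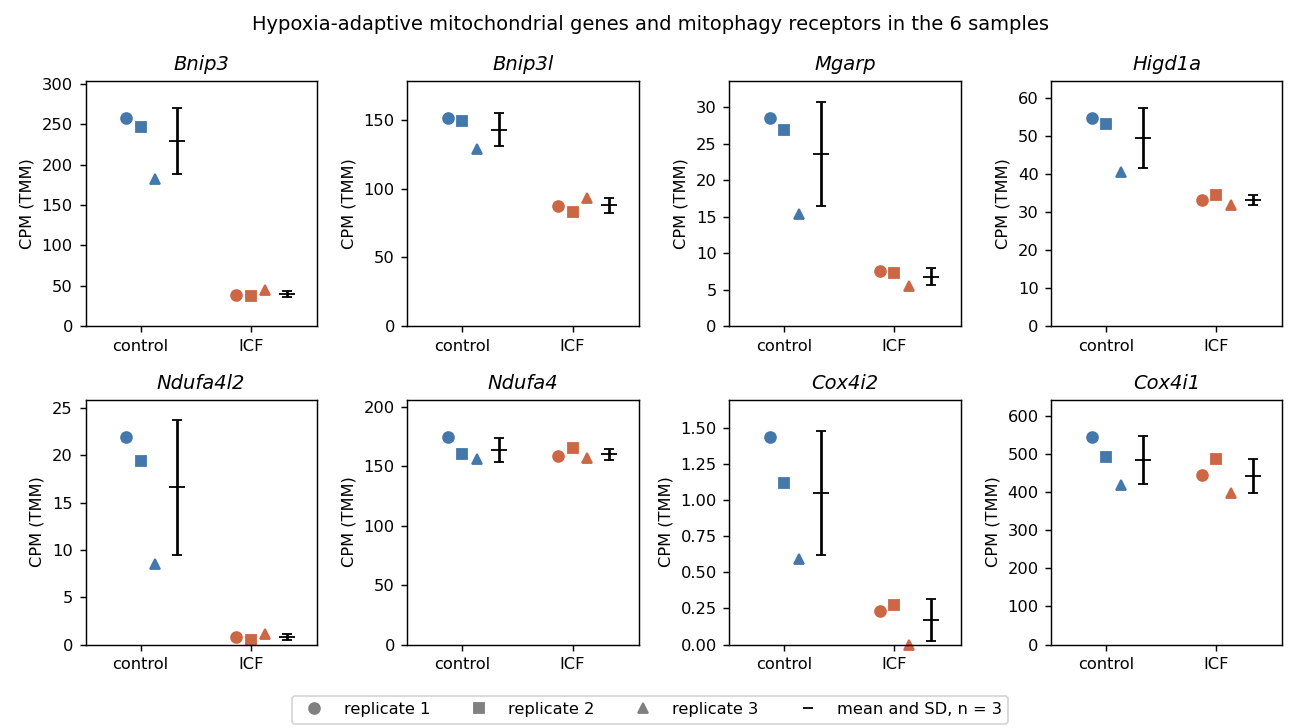
Levels in CPM (TMM-normalized) of the 8 genes on the vertical axes, for 3 control and 3 ICF samples on the horizontal axes, with markers by replicate and bars for the mean and SD (n = 3). Bnip3, Bnip3l, Mgarp, Higd1a, Ndufa4l2 and Cox4i2 do not overlap between the groups, Ndufa4 and Cox4i1 do, and control replicate 3 is the lowest control in all 8 panels.

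Bnip3 (chr7:138890836-138909519, minus strand, GRCm38, as all positions of genes here) encodes the receptor that binds LC3-type proteins on the autophagosome. Its counts were 7522, 7742 and 5231 in control replicates 1 to 3 and 1331, 1234 and 1289 in the ICF replicates. After normalization these were 257, 247 and 182 CPM in control and 38.3, 37.4 and 44.5 CPM with ICF. The ICF samples lay close together and far below the lowest control sample. The mean was 229 ± 40.9 CPM in control and 40.05 ± 3.88 CPM with ICF (SD, n = 3), a log2 fold change of -2.52 (SE 0.18), so that 17.5% of the control level was left.

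Bnip3l (chr14:66985239-67008877, minus strand) encodes NIX, the receptor known for clearing mitochondria from maturing red blood cells. It was at 151, 149 and 129 CPM in the control replicates and at 87.1, 83.0 and 93.5 CPM in the ICF replicates, again with no overlap. The log2 fold change was -0.70 (SE 0.09), with 61.4% of the control level left (143 ± 12.2 against 87.9 ± 5.28 CPM, SD, n = 3). The receptors thus differed in how far they were lower, while both stayed among the well-counted genes. The lowest count in any sample was 1234 for Bnip3 and 2708 for Bnip3l. Per kb of exon, Bnip3 was the higher of the pair in control (101 against 37.1 CPM per kb) and the lower with ICF (17.7 against 22.8 CPM per kb).

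Mgarp (chr3:51388412-51396738, minus strand) encodes a mitochondrial protein that takes part in moving mitochondria along microtubules and is itself induced under hypoxia. Its levels were 28.5, 26.9 and 15.4 CPM in control and 7.57, 7.26 and 5.52 CPM with ICF. Replicate 3 was the lowest sample in both groups, yet control replicate 3 remained above all ICF samples. The log2 fold change was -1.79 (SE 0.32), from 23.6 ± 7.14 to 6.79 ± 1.10 CPM (SD, n = 3).

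Higd1a (chr9:121848563-121858362, minus strand) encodes a small inner-membrane protein of the HIG1 family that associates with cytochrome c oxidase. It was at 54.6, 53.1 and 40.4 CPM in control and at 33.1, 34.4 and 31.8 CPM with ICF. The gap between the lowest control and the highest ICF sample was the narrowest of the 6 in proportion, and the log2 fold change was -0.58 (SE 0.14). Over all other settings tried it ran from -0.70 to -0.50.

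Ndufa4l2 (chr10:127514967-127517154, plus strand) had counts of 641, 608 and 243 in the control replicates and 28, 15 and 32 in the ICF replicates. The count of 32 in ICF replicate 3 is a multiple of 4, as most counts of that sample are, and may stand for fewer reads. With the counts of that sample divided by 4, the log2 fold change was -4.59. Its CPM were 21.9, 19.4 and 8.45 in control and 0.806, 0.454 and 1.10 with ICF. Control replicate 3 was well under the other control samples and still above every ICF sample. The log2 fold change of -4.41 (SE 0.55) left 4.75% of the control level (16.6 ± 7.17 against 0.788 ± 0.326 CPM, SD, n = 3).

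Ndufa4 (chr6:11900292-11907497, minus strand), whose product is a subunit of cytochrome c oxidase, was at 175, 160 and 156 CPM in control and 158, 165 and 156 CPM with ICF. The groups overlapped, and the log2 fold change was -0.03 (SE 0.06). Within each sample, Ndufa4l2 amounted to 15.8%, 15.3% and 6.85% of Ndufa4 in the control replicates, both in CPM per kb of exon. With ICF, this ratio was 0.642%, 0.347% and 0.890%. The ratio of the paralogs was thus 20.3-fold lower with ICF, a difference of -4.34 (SE 0.56) on the log2 scale. Per kb of coding sequence its levels were lower, at 11.85%, 11.45% and 5.12% in the control replicates. In the ICF replicates they were 0.48%, 0.26% and 0.67%, and the log2 difference stays the same by either length.

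Cox4i2 (chr2:152754173-152765037, plus strand) was the least counted of the 8 genes, with 42, 35 and 17 reads in control and 8, 9 and 0 with ICF. In CPM this was 1.44, 1.12 and 0.591 in control and 0.230, 0.272 and 0 with ICF. The count of 0 in ICF replicate 3 allows up to 3 counts, or 0.104 CPM, by counting error only. As most counts of this sample are multiples of 4, a read may stand for 4 counts there, and the limit would then be 12 counts, or 0.414 CPM, above the other ICF samples. The groups did not overlap and the fitted log2 fold change was -2.57 (SE 0.84), which depends in part on the prior count at such low levels.

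Cox4i1 (chr8:120668222-120674207, plus strand), the subunit present in most tissues, was at 546, 493 and 420 CPM in control and 445, 488 and 399 CPM with ICF. The groups overlapped and the log2 fold change was -0.13 (SE 0.14). Without replicate 3 of both groups it was -0.16. Cox4i2 amounted to 0.518%, 0.446% and 0.277% of Cox4i1 in the control replicates, in CPM per kb of exon, and to 0.102%, 0.110% and 0 in the ICF replicates. With ICF replicate 3 set at the limit of 3 counts (0.0510%), the log2 difference of this ratio was -2.27 (SE 0.45), and with the limit of 12 counts (0.204%) it was -1.60 (SE 0.42). Per kb of coding sequence the levels of the ratio were lower, at 0.321%, 0.277% and 0.172% in the control and 0.0631%, 0.0681% and 0 in the ICF replicates, without a change in the log2 difference. By either length, in neither group did Cox4i2 reach 1% of Cox4i1.

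Bnip3 amounted to 290%, 283% and 240% of Bnip3l per kb of exon in the control replicates and to 74.99%, 76.7% and 81.1% in the ICF replicates. Of the 3 ratios, this was the tightest within groups, and it was 3.48-fold lower with ICF, a log2 difference of -1.80 (SE 0.09). Per kb of coding sequence its levels were 199%, 194% and 165% in the control and 51.5%, 52.7% and 55.7% in the ICF replicates.

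**Figure D2:**
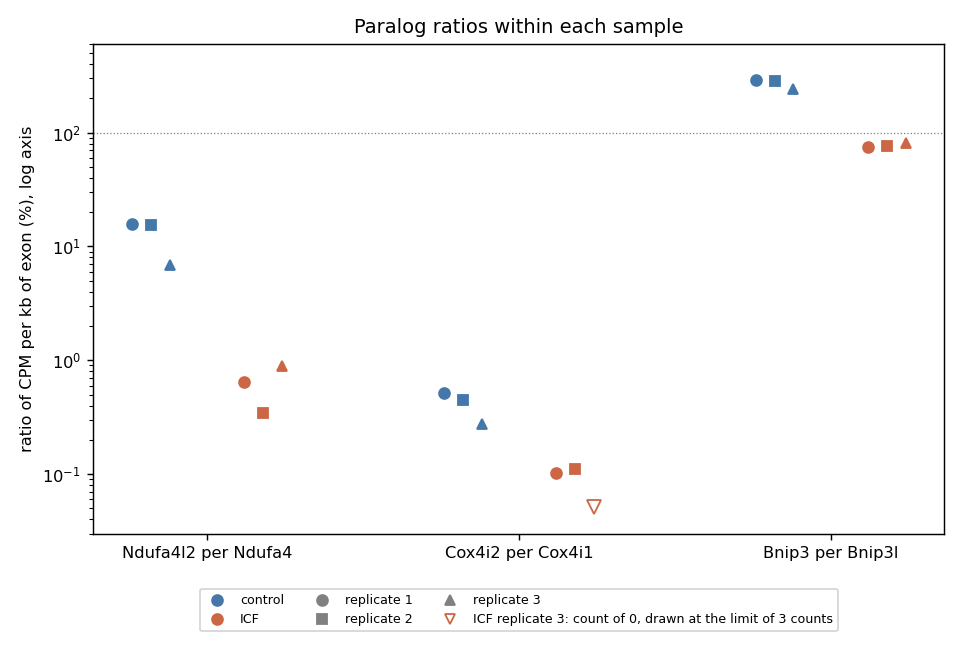
Ratio of paralogs within each sample, in percent on a log axis, from CPM per kb of exon, with control and ICF by colour and replicates by marker. All 3 ratios are lower in each ICF sample than in any control sample, and the open triangle is Cox4i2 per Cox4i1 in ICF replicate 3, with a count of 0, drawn at the limit of 3 counts (0.0510%), which would be 0.204% at 4 counts per read.

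The control samples differed among themselves in the same genes. Control replicate 3 was the lowest control for all 8 genes, which holds for 42.1% of all genes tested. Relative to the mean of control replicates 1 and 2 it stood at 40.9% for Ndufa4l2, 46.3% for Cox4i2, 55.6% for Mgarp, 72.1% for Bnip3 and 74.98% for Higd1a. Cox4i1, Bnip3l and Ndufa4 stood at 80.9%, 85.9% and 93.1%. The median of all genes tested was 99.6%, with a 5th percentile of 70.5% and a 95th percentile of 157%. Thus Ndufa4l2, Cox4i2 and Mgarp lay below the 5th percentile. The median of the 23 other HIF-1 targets listed was 80.4%, and 19 of them were lowest in this sample. Low medians were not particular to such genes. The 9 tested mesenchymal and fibroblast markers had 71.8%, and the 10 pluripotent cell markers had 83.2%, with 8 of them lowest in this sample. Medians of the 7 mitochondrial lists ran from 89.2% to 102.8%, and that of the endothelial markers was 116.7%.

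**Figure D3:**
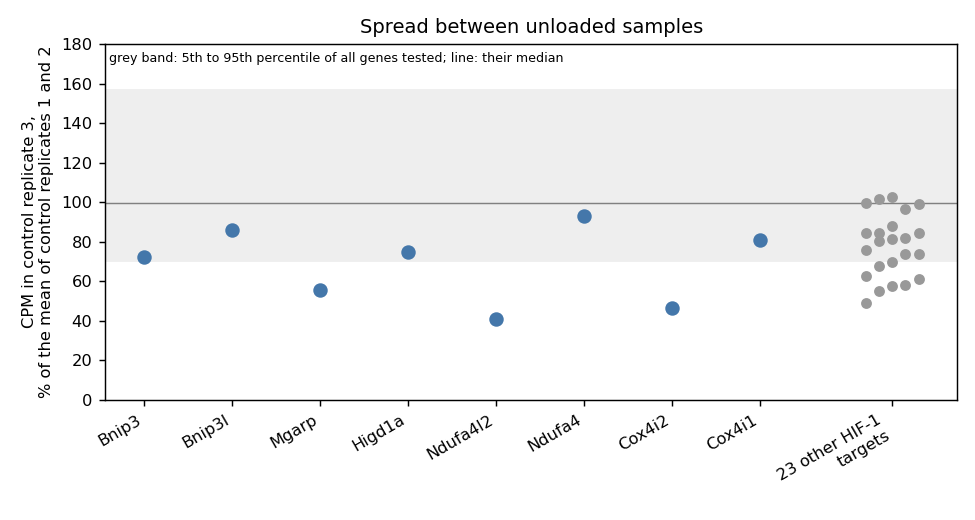
Level in control replicate 3 as a percentage of the mean of control replicates 1 and 2, for the 8 genes and for 23 other HIF-1 targets, without any loaded sample. The grey band spans the 5th to 95th percentile of all genes tested, and Ndufa4l2 (40.9%), Cox4i2 (46.3%) and Mgarp (55.6%) lie below it.

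The difference between same-numbered samples was smaller in replicate 3 for 5 of the 6 genes whose groups did not overlap. The base of this pair, control replicate 3, was the lowest control for all 8 genes, which by itself makes the difference smaller. How many of all genes share this pattern was not counted. Bnip3 with ICF was at 14.9%, 15.1% and 24.4% of its control in pairs 1 to 3, and Ndufa4l2 at 3.68%, 2.34% and 13.1%. Bnip3l, Mgarp and Higd1a were also nearest to their control in pair 3, at 72.5%, 35.9% and 78.8%. Cox4i2 went the other way, at 16.0%, 24.4% and 0 in pairs 1 to 3. Ndufa4 was at 90.7%, 103% and 100.5%, without a common direction, and Cox4i1 at 81.5%, 99.0% and 95.1%.

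Genes around the 8 were counted in 7 lists of mitochondrial genes, which hold 89 tested genes in all. Of these, 4 were lower and 3 higher with ICF, or 7.87% beside the 7.85% of all genes tested, and their median log2 fold change was -0.01 beside 0.003 for all genes. In the fit with the donor number as a replicate block, 18 were lower and 7 higher, or 28.1% beside 29.9% of all genes. Most of the machinery around these proteins was therefore not called in either fit. None of the 7 calls held under every omission of 1 sample: 0 lower and 1 higher were left without control replicate 1, 0 and 0 without control replicate 2, and 1 and 1 without ICF replicate 1 or ICF replicate 2. Without control replicate 3 the counts were 8 and 2.

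Among 24 genes of the mitophagy machinery, 1 was lower and 1 higher, against 2 and 2 with the replicate block. Nipsnap2, which marks damaged mitochondria for autophagy, was lower (59.0 ± 7.41 against 38.5 ± 3.90 CPM, log2 fold change -0.62, SE 0.14, edgeR adjusted p = 0.013). Gabarap, an LC3-type protein bound by both receptors, was higher (138 ± 4.61 against 161 ± 4.38 CPM, log2 fold change 0.23, SE 0.04, edgeR adjusted p = 0.046). Nipsnap2 was not past the threshold without control replicate 1 or 2 (-0.56 and -0.57), nor Gabarap without any 1 of the 6 samples (0.20 to 0.25). Pink1, the kinase of the parkin route, had a log2 fold change of -0.22 (edgeR adjusted p = 0.11, and 0.013 with the replicate block). Of 10 partners of BNIP3 and NIX, Fbxl4, part of the ubiquitin ligase that limits both receptors, was the only one called by edgeR without the block (17.6 ± 0.97 against 13.6 ± 0.20 CPM, log2 fold change -0.37, SE 0.05, edgeR adjusted p = 0.037), a call lost without replicate 1 or 2 of either group (-0.37 to -0.34). With the replicate block 3 of the 10 were lower, Bnip1 (-0.33, edgeR adjusted p = 0.00099) and Tmem11 (-0.20, edgeR adjusted p = 0.010) besides Fbxl4, and DESeq2 called 2. Rheb, which binds NIX, had a log2 fold change of 0.02 (edgeR adjusted p = 0.85).

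None of 12 tested other subunits of cytochrome c oxidase was called by edgeR, with a median log2 fold change of -0.13. At an unadjusted p under 0.05 there were 4 lower and 1 higher, by DESeq2 1 and 1, and with the replicate block 5 and 1. The highest in level were Cox5a (log2 fold change -0.16, edgeR adjusted p = 0.42, and 0.026 with the block) and Cox6a1 (-0.12, edgeR adjusted p = 0.47, and 0.072 with the block). Of 4 regulators of the COX4 isoforms, 2 were lower. Rbpj, which acts at an oxygen-responsive element of Cox4i2, went from 232 ± 4.87 to 182 ± 18.3 CPM (log2 fold change -0.35, SE 0.09, edgeR adjusted p = 0.031). Lonp1, the matrix protease that degrades COX4-1 under hypoxia, went from 237 ± 13.6 to 193 ± 3.11 CPM (-0.30, SE 0.05, edgeR adjusted p = 0.023). Both calls were lost without replicate 1 or 2 of either group, with -0.36 to -0.27 for Rbpj and -0.29 to -0.26 for Lonp1.

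Among 8 tested HIG1 family and supercomplex genes, Uqcc3, an assembly factor of complex III, was higher (18.4 ± 0.12 against 26.0 ± 1.04 CPM, log2 fold change 0.50, SE 0.03, edgeR adjusted p = 0.0063), which was lost only without control replicate 2 (0.50). Cox7a2l, which joins complexes III and IV, had a log2 fold change of -0.28 (edgeR adjusted p = 0.061, and 0.00025 with the replicate block). With the block, 2 genes of this list were lower and 1 higher. None of 15 tested genes of mitochondrial transport and dynamics was called by edgeR, against 2 lower and 1 higher at an unadjusted p under 0.05, 1 and 0 by DESeq2, and 3 and 2 with the replicate block. Kif5b, the kinesin that moves mitochondria, had a log2 fold change of 0.10 (edgeR adjusted p = 0.51, and 0.12 with the block). Dnm1l, the fission GTPase, had -0.14 (edgeR adjusted p = 0.45, and 0.042 with the block). Of 17 genes that serve as a reference for mitochondrial content, Hspd1, the matrix chaperone HSP60, was higher (796 ± 77.1 against 1009 ± 63.4 CPM, log2 fold change 0.34, SE 0.10, edgeR adjusted p = 0.040), but without any 1 sample other than control replicate 3 it was not past the threshold (0.28 to 0.38). Hspa9, the highest in level (953 and 905 CPM), had a log2 fold change of -0.07 (edgeR adjusted p = 0.47). With the block, 2 of the list were lower and 1 higher. The median of these 17 was -0.07, and their summed level ran from 4559 to 4654 CPM in control and from 4554 to 4777 CPM with ICF.

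Other HIF-1 targets behaved differently from these lists: 21 of 23 were lower with ICF and none higher by edgeR (22 lower and 0 higher at an unadjusted p under 0.05 and by DESeq2), with a median log2 fold change of -1.28. This list was also chosen with earlier results of these samples known, so its direction is not independent evidence. The largest differences were in Adm, a vasodilator peptide (11.4 ± 4.05 against 0.681 ± 0.156 CPM, log2 fold change -4.08, edgeR adjusted p = 0.00054), Ankrd37 (-2.98) and the prolyl hydroxylase Egln3 (-2.73). Aldoc, Slc16a3 and Ldha, which serve glycolysis and lactate export, followed at -2.37, -2.28 and -1.69. The 2 not called by edgeR, named here after their values were seen, were Pfkfb4 (0.11, edgeR adjusted p = 0.69) and Mxi1 (-0.28, edgeR adjusted p = 0.077), a repressor linked to mitochondrial content. With the replicate block, Mxi1 was called as well (edgeR adjusted p = 0.00096). Bnip3 and Ndufa4l2 thus lay among the larger of these differences, and Bnip3l and Higd1a among the smaller.

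**Figure D4:**
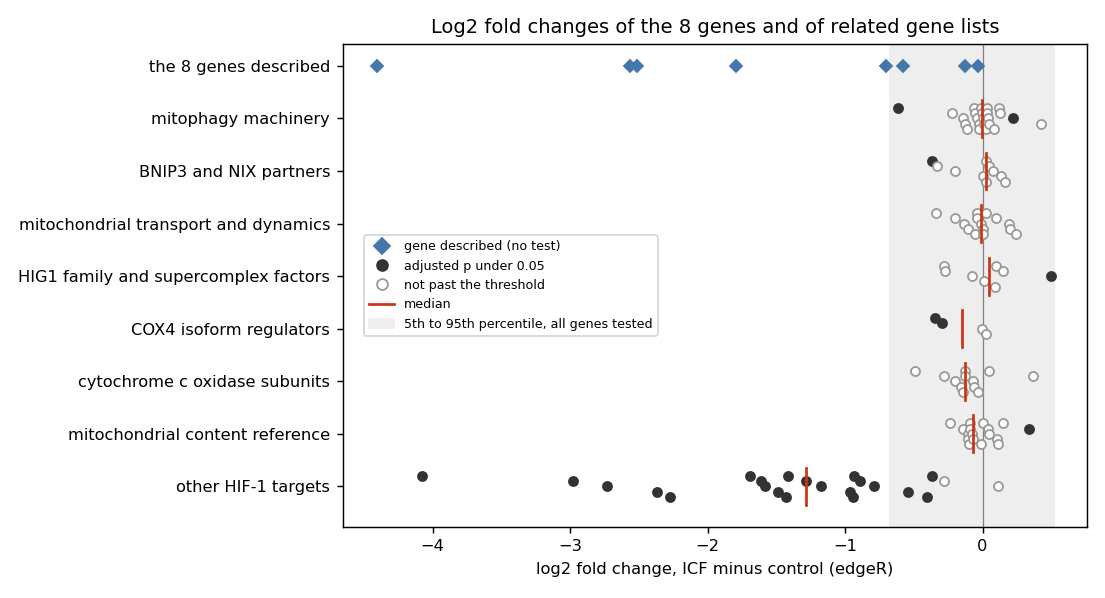
Log2 fold change (ICF minus control, edgeR) of each gene in 1 row per list, with filled points for an adjusted p under 0.05, open points for the rest, red lines for list medians and diamonds, without a test, for the 8 genes described. The 7 mitochondrial lists lie around 0 (median -0.01 over their 89 tested genes), whereas 21 of 23 other HIF-1 targets lie below it past the threshold.

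Markers of cell types in which some of the 8 genes are prominent were set beside them. Erythroid markers, relevant to Bnip3l, summed to 2.54 to 3.73 CPM in control and 1.52 to 2.50 CPM with ICF, and 3 of 10 had no count in any sample. Of the 2 tested, none was called by edgeR or DESeq2 without the block, and Epor, the erythropoietin receptor, was lower with it (2.48 against 1.23 CPM, log2 fold change -0.99, edgeR adjusted p = 0.13, and 0.00067 with the block). Klf1 had a log2 fold change of 0.39 (edgeR adjusted p = 0.44). Mural cell markers, relevant to Ndufa4l2 and Cox4i2, summed to 77.5 to 81.2 CPM and 84.4 to 106 CPM, with 1 of 6 tested higher (Cspg4, log2 fold change 0.85, edgeR adjusted p = 0.017) and none lower, at an unadjusted p under 0.05 and by DESeq2 alike, and 3 higher with the replicate block (Notch3 and Acta2 besides Cspg4). The call of Cspg4 was lost without replicate 1 or 2 of either group (0.75 to 0.87). The pericyte gene Higd1b, a HIG1 family member named after its values were seen, had 2, 1 and 0 reads in control and none with ICF. Endothelial markers summed to 77.2 to 93.6 CPM and 79.0 to 111 CPM, with 0 of 7 called by edgeR (2 lower and 1 higher at an unadjusted p under 0.05 and with the replicate block, 1 and 1 by DESeq2). The highest were Pecam1 (log2 fold change 0.08, edgeR adjusted p = 0.87) and Cdh5 (0.37, edgeR adjusted p = 0.052, and 0.00029 with the block).

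Mesenchymal and fibroblast markers summed to 375 to 435 CPM in control and 451 to 465 CPM with ICF, and 2 of 9 tested were higher (Col1a1, log2 fold change 0.75, edgeR adjusted p = 0.022, and Col3a1, 0.73, edgeR adjusted p = 0.048). Col1a1 was lost without control replicate 1, ICF replicate 1 or ICF replicate 2 (0.68 to 0.79), and Col3a1 without any 1 of the 6 samples (0.57 to 0.89) and by DESeq2 with the block. With the replicate block in edgeR 4 were higher, Col1a2 and Twist1 besides these. Pluripotent cell markers summed to 3846 to 4656 CPM and 3479 to 3928 CPM, with 1 of 10 lower (Tdgf1, log2 fold change -0.81, edgeR adjusted p = 0.0028) and 4 lower with the block. Neuroectoderm markers summed to 120 to 131 CPM and 115 to 124 CPM with 0 of 6 called by edgeR (1 lower and 2 higher at an unadjusted p under 0.05 and with the replicate block, 0 and 1 by DESeq2). Tubb3 had a log2 fold change of -0.23 (edgeR adjusted p = 0.11, and 0.0025 with the block) and Sox1 of 0.03 (edgeR adjusted p = 0.84). Endoderm and extraembryonic markers summed to 1019 to 1271 CPM and 1145 to 1404 CPM, with 1 of 8 lower (Sox17, log2 fold change -0.34, edgeR adjusted p = 0.045), which was lost without any 1 sample other than ICF replicate 2 (-0.37 to -0.28). Dab2, the highest of these in level, had a log2 fold change of 0.25 (edgeR adjusted p = 0.37, and 9.7e-05 with the block). The part of cell composition in the levels of the 8 genes was not tested.

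Over the 6 samples, the genes whose log2 CPM followed Bnip3 most closely included Src (Pearson r = 0.9992), Rnf145 (0.9988), P2ry2 (0.9984) and Klhl2 (0.9982), among the 11925 genes whose mean count reached 100. With Ndufa4l2 these were Tent2 (0.9997), Dusp16, Klhl2, Etfa and Tmem81 (0.9962 to 0.9956). Pearson r does not measure the size of a difference. Log2 fold changes were -0.14 for Tent2, -0.22 for Dusp16, -0.65 for Klhl2, -0.16 for Etfa and -0.48 for Tmem81. That of Ndufa4l2 was -4.41. Src, Rnf145 and P2ry2 had -0.55, -0.46 and -1.48, beside -2.52 for Bnip3. The points are the same 6 libraries in 2 groups. By Spearman's rho, 258 genes were tied with or above the lowest of the 5 closest to Bnip3, and 58 for Ndufa4l2. Among the 8 genes, r with Bnip3 was 0.994 for Bnip3l, 0.991 for Ndufa4l2, 0.960 for Mgarp, 0.932 for Higd1a and 0.819 for Cox4i2. It was 0.470 for Cox4i1 and 0.321 for Ndufa4. Nothing is drawn from these values, since the genes were chosen from the difference between the same groups.

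Reads shared with other genes limit some of these counts. Of the 75-base stretches of the longest transcript, 46.2% of Bnip3, 18.7% of Bnip3l, 34.3% of Higd1a and 11.6% of Cox4i1 also occur in transcripts of another gene on either strand. On the same strand alone the shares were 15.3%, 18.7%, 6.07% and 0, and Ndufa4l2, Ndufa4, Cox4i2 and Mgarp had none. The largest share of Bnip3, 27.4%, was with AC160336.1, which lies outside chr7 and has no entry in the count files. Gm45507, antisense to Bnip3, shares 17.3% and had 10 counts over the control samples and 1 over the ICF samples. The processed pseudogene Gm16439, which shares 11.7% of the stretches of Bnip3, had 89 and 14. Reads that align to several places are not counted for a gene, so levels of Bnip3 and Bnip3l per kb, and their ratio, may be off. The size of this was not tested. Bnip3l-ps had 393 and 303 reads, and Gm47112, antisense to Higd1a, had 14 and 11. Emc8, which overlaps Cox4i1 on the opposite strand, was at 103 CPM in control and 101 CPM with ICF. The strand setting of the counting is not given in the sources used here, so reads of overlapping antisense genes cannot be told apart with certainty.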

How the data were processed

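The deposited values are raw read counts per gene for each of the 6 samples, without normalization. The authors made strand-specific libraries (single reads of 75 cycles), and used FastQC, Trimmomatic, HISAT2 and HTSeq for quality control, trimming, mapping and counting. The submitters' processing notes also name bcl2fastq 2.19, DESeq2 and the builds GRCm38 and hg38. The identifiers are of mouse. The methods name Ribospin II for RNA extraction and the labels another kit. Lines that name no gene held 38.1% to 40.3% of the tallied reads per sample and were left out.

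Gene names and positions came from GENCODE M21 (GRCm38), which names 50462 of the identifiers. The test over all genes was edgeR 4.0.16 in R 4.3.3 (TMM, filterByExpr by group, glmQLFit, glmQLFTest) with p-values adjusted by Benjamini-Hochberg (threshold 0.05), and it was tested on simulated data. CPM are TMM-normalized, and SE come from the spread of log2 CPM. CPM per kb use the union of exons, which for Ndufa4 includes a retained intron. This union is 1550 bases for Cox4i1, whose longest transcript has 765, against 1381 and 1232 for Ndufa4. A long union lowers Cox4i1 per kb and raises Cox4i2 per Cox4i1. P-values weigh the difference between the groups against the spread between these samples, and what a donor number stands for is not known.

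The 8 genes and all lists were chosen with earlier results of these data known. Text names the called genes of a list and, where fewer than 2 were called, those of highest level, and up to 6 other HIF-1 targets by size of change. Pink1, Higd1b and genes named because only the block called them, like the 2 uncalled HIF-1 targets, are exceptions chosen after their values were seen. Same-numbered samples share a donor number in the labels, and their deviations from the group means correlated at 0.15, 0.197 and 0.376 (other pairs -0.343 to 0.263). Alternatives were RLE size factors, DESeq2 1.42.0, looser and stricter filters (1 count in some sample, 10 counts in all), the replicate block with either tool, each sample or replicate 3 of both groups left out, and counts of ICF replicate 3 divided by 4. A limit of 12 counts for the 0 of Cox4i2 was chosen after seeing the data. Protein sequences and a search of the genome for other copies were not analysed here. Of the 5 genes most like Bnip3 in pattern, 1 is not reported here.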

Additional observations from a re-analysis of the deposited data

How the results depend on the processing

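Over all 14 alternatives the log2 fold changes ran from -2.74 to -2.42 for Bnip3, -0.82 to -0.66 for Bnip3l, -5.02 to -4.12 for Ndufa4l2, -2.02 to -1.64 for Mgarp, -0.70 to -0.50 for Higd1a, -0.07 to 0.02 for Ndufa4 and -0.23 to -0.04 for Cox4i1. For Cox4i2, not tested under the strict filter, they ran from -3.04 to -2.04. DESeq2, with or without the replicate block, gave Cox4i2 a log2 fold change but no adjusted p. As the genes were chosen in this comparison, these ranges are a description. Leaving out replicate 3 of both groups moved the log2 difference of Ndufa4l2 per Ndufa4 from -4.34 to -5.04. The replicate block cannot move such a difference, since the mean over complete pairs equals the difference of the group means. The log2 difference of Cox4i2 per Cox4i1, -2.27, became -1.60 with a limit of 12 counts in ICF replicate 3. That alternative was chosen after seeing the data.

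Counts over all genes moved more. Of the 733 called lower and 580 called higher, DESeq2 gave 1109 and 943, the replicate block 2561 and 2445, the replicate block with DESeq2 1662 and 1457, and leaving out replicate 3 of both groups 2627 and 2466. Leaving out 1 sample gave 215 to 928 and 85 to 724. In the 7 mitochondrial lists, the 4 lower genes became 8 with DESeq2, 18 with the block, 13 with the block in DESeq2, 18 without replicate 3 of both groups and 0 to 8 without 1 sample. The 3 higher became 7 with the block, 6 with the block in DESeq2, 7 without replicate 3 of both groups and 0 to 2 without 1 sample. Of 462 values of 33 list genes called and named or counted, 61 fell short of the threshold, 58 of them without 1 sample, and none changed sign. The cause of these moves was not tested. Counting depth limits Cox4i2, with at most 42 reads in a sample.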
